A study of Rattus norvegicus with 15 samples.

Results

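Transcripts of the retinoid pathway were followed in primary rat hepatocytes exposed to flutamide, a nonsteroidal antiandrogen. The set holds 5 genes: Dhrs3, Aldh1a1, Rbp4, Rarb and Lrat. Its members were chosen by gene symbol in the platform annotation, and Dhrs3 was selected on its measured values, because it lay lower at 100 µM in both number runs of the samples. Of the 5 genes, 4 had a probe set of their own among the 14506 genes tested, 1 probe set each. Rarb, the gene of retinoic acid receptor beta, was not analysed here.

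Fresh hepatocytes adhered to collagen-coated microfluidic biochips in serum-containing medium and were then perfused in a medium with insulin, transferrin and selenium. Exposure lasted 24 h, and 15 arrays were hybridised: 5 with DMSO solvent, 6 with 10 µM flutamide and 4 with 100 µM flutamide. The labels name no strain, sex or age of rat and do not tell whether biochips held cells of different animals, so every p-value reflects the spread among biochips, which may be technical. The titles number the biochips 10 to 16 (run 1, with 2 DMSO, 3 10 µM and 2 100 µM arrays) and 20 to 27 (run 2, with 3, 3 and 2). What the runs stand for is not stated.

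Retinol reaches tissues bound to Rbp4, the plasma carrier that hepatocytes secrete together with transthyretin. Inside cells retinol is either stored as retinyl ester, which Lrat makes, or oxidised to retinal and then, by the Aldh1a enzymes, to retinoic acid, the ligand of the nuclear retinoic acid receptors. Dhrs3 runs the first oxidation backwards, reducing retinal to retinol, and is itself induced by retinoic acid in several vertebrate systems. In liver the ester stores lie mostly in stellate cells, whereas Rbp4 is a hepatocyte product.

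The cells carried the labelled identity: all 11 measured hepatocyte markers had group means above the median of the 14506 genes, and their mean log2 level was 10.5 to 11.3 in the single arrays. Of 20 stellate cell and fibroblast markers 5 to 6 lay above that median. Of 12 Kupffer cell and macrophage markers 9 did so in DMSO, 7 at 10 µM and 4 at 100 µM. Of 7 endothelial markers 0 to 1 did so, and of 5 cholangiocyte markers 1. The 10 µM array 23 stood apart, with a quality weight of 0.205, and carried the highest mean of the Kupffer cell markers (7.36, against 5.62 to 6.17 in the other 10 µM arrays and 5.80 to 6.92 in DMSO). No gene of the 14506 was called at 100 µM or at 10 µM against DMSO (0% each by limma at an adjusted p under 0.05). Without adjustment 6.85% of genes passed p under 0.05 at 100 µM and 7.65% at 10 µM. Of all genes 44.3% lay lower than in DMSO at 100 µM and 50.9% at 10 µM, the shares to set beside the counts of list genes below.

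The promoters are shown for the 2 members with the larger differences at 100 µM, Dhrs3 and Aldh1a1, so that they can be read for retinoic acid response elements. Each window runs from 250 bases before to 50 bases past the start of 1 RefSeq transcript in assembly GRCr8, both on the plus strand, at chr5:162031603-162031902 for Dhrs3 and chr1:227537370-227537669 for Aldh1a1. Capitals mark CCAAT boxes (CCAAT or its reverse complement ATTGG) and retinoic acid half-sites.
Dhrs3: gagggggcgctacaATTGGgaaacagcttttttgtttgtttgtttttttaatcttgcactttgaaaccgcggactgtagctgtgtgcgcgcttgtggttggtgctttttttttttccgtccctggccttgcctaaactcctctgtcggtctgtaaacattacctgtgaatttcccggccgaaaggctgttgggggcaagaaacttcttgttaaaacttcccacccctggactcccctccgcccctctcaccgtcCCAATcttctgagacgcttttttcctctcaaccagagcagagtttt
Aldh1a1: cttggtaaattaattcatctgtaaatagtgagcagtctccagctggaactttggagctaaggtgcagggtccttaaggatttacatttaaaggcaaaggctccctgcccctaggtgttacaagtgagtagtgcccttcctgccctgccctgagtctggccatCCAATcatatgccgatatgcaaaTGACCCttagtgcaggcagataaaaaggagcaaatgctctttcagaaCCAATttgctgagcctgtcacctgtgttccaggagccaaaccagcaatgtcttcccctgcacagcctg

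Half-sites were searched on both strands as the consensus AGGTCA or as a variant of it, that is AGTTCA, a match to GGTTCA or a match to GGGTCA. The Dhrs3 window held none and had CCAAT boxes at -236 and 5 from the start. The Aldh1a1 window held 1 half-site, the reverse complement TGACCC, at -65, with CCAAT boxes at -88 and -18. The Aldh1a1 and Rarb windows lie inside the spans RefSeq gives these genes, so starts further upstream were not searched. Neither the Dhrs3 nor the Aldh1a1 window held a direct repeat of half-sites spaced by 2 or 5 bases. Over 33469 rat promoter windows of the same length, 44.4% held a half-site and 37.5% a CCAAT box, so a single match is common. A direct repeat spaced by 5 was found in 0.382% and one spaced by 2 in 0.17%. For comparison, the window of Rarb, a textbook retinoic acid target, held a direct repeat spaced by 5 on the plus strand of chromosome 15 at 25 from the start, shown here with the whole repeat in capitals.
Rarb: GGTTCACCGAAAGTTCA

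Dhrs3, the retinal reductase, was lower in every flutamide array than in every DMSO array. Its log2 level was 6.38, 6.38, 6.42, 6.35 and 6.77 in the DMSO arrays. In the 10 µM arrays it ranged 5.57 to 6.15 with a median of 5.86. At 100 µM it was 5.37, 5.81, 6.01 and 5.40. The highest flutamide array thus stayed under the lowest DMSO array, while the 10 µM and 100 µM arrays overlapped each other. Of all genes, 8 (0.0551%) lay wholly below DMSO in this way over both doses and 8 (0.0551%) wholly above. At 100 µM alone 0.931% lay wholly below and 1.13% above, and at 10 µM alone 0.221% and 0.414%. Since Dhrs3 was selected on its 100 µM values, its place among these genes is a description.

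At 100 µM Dhrs3 averaged 5.65 ± 0.31, against 6.46 ± 0.18 in DMSO (log2, SD, n = 4 and 5). The difference in the fit with the number run as a term was -0.80 (SE 0.15, 95% interval -1.12 to -0.48), or 1.74-fold lower. It was -0.79 within run 1 and -0.81 within run 2, the likeness on which the gene was selected. The difference lay in place 69 from the lowest of 14506 genes. Of 11 hepatocyte markers 7 lay lower at 100 µM (median -0.08) and 4 at 10 µM (median 0.03), and of 12 Kupffer cell and macrophage markers 11 lay lower at 100 µM (median -0.32) and 9 at 10 µM (median -0.18), with 0 called. The Kupffer cell marker that lay higher at 100 µM was Cd68, at 1.18 (SE 0.42), and at 10 µM it was at 1.17 (SE 0.38). The array means of the Kupffer cell markers were 5.69 to 6.41 at 100 µM and 5.80 to 6.92 in DMSO. The part of the marker genes in the values of Dhrs3 and Aldh1a1 was not tested.

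At 10 µM, values that did not choose the gene, Dhrs3 averaged 5.84 ± 0.21 (log2, SD, n = 6). The difference from DMSO was -0.60 (SE 0.13, 95% interval -0.89 to -0.32), or 1.52-fold lower, and lower in 6 of 6 arrays. It missed the threshold over all genes (limma, unadjusted p = 0.000487, adjusted p = 0.285), and a two-sided exact permutation test within runs gave p = 0.01 over 200 arrangements. Both tests use the same DMSO arrays as the choice of the gene, so they are not independent of it. Within runs the difference was -0.59 and -0.61, and its change between runs was -0.03 (SE 0.29, 95% interval -0.66 to 0.61, limma adjusted p = 0.980). That interval leaves room for runs differing by as much as the effect itself. The test of the change between runs also uses the DMSO arrays on which the gene was selected as alike in both runs. It is therefore not independent of the choice either. Among all genes 0.0414% were called for such a change.

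Between the doses, 100 µM minus 10 µM was -0.19 for Dhrs3 (SE 0.14, 95% interval -0.50 to 0.11), an interval that covers 0. Without 100 µM array 26 it was -0.31 and without 100 µM array 27 -0.08. For a 10-fold step in dose the gap was about the size of the SD within a group. DMSO array 22, at 6.77, lay above the other 4 DMSO arrays. Leaving it out gave -0.73 at 100 µM and -0.54 at 10 µM (limma adjusted p = 0.586).

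**Figure D1:**
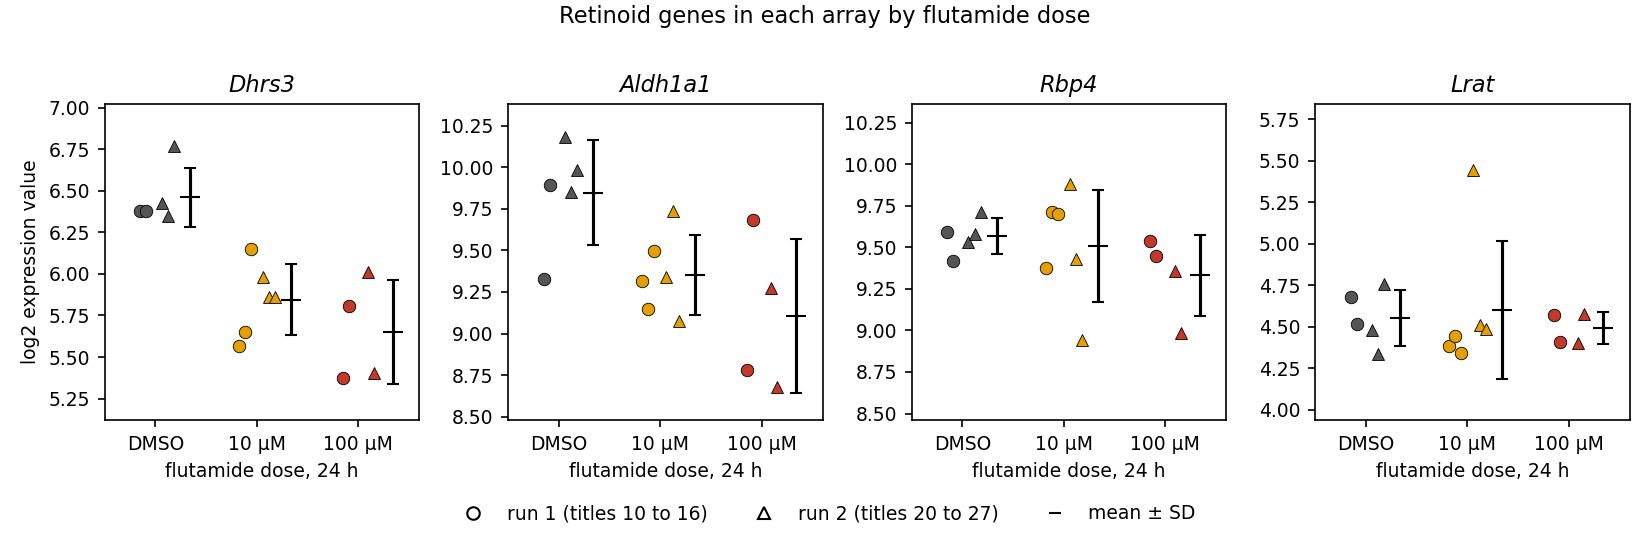
Log2 expression (vertical axis) of Dhrs3, Aldh1a1, Rbp4 and Lrat, 1 point per array, by dose from DMSO to 100 µM on the horizontal axis, with symbols for the number run and bars for the group mean and SD. All 10 flutamide arrays of Dhrs3, at 5.37 to 6.15, sit under all 5 DMSO arrays, and 1 array of Lrat at 10 µM stands at 5.44.

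Aldh1a1, the retinal dehydrogenase that makes retinoic acid, lay lower on average at both doses but overlapped DMSO. Its log2 level in DMSO was 9.33, 9.90, 10.18, 9.85 and 9.98. In the 10 µM arrays it ranged 9.08 to 9.74 with a median of 9.33, and at 100 µM it was 8.78, 9.68, 9.27 and 8.68. Of the flutamide arrays, 3 of 4 at 100 µM and 3 of 6 at 10 µM lay under every DMSO array, and only the lowest DMSO array, in run 1, reached into the range of the flutamide arrays. Aldh1a7, a close copy of Aldh1a1 in rodents, has no named probe set here, so any of its signal in the Aldh1a1 value cannot be told apart.

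At 100 µM Aldh1a1 averaged 9.10 ± 0.46, against 9.85 ± 0.32 in DMSO (log2, SD, n = 4 and 5). The difference was -0.74 (SE 0.21, 95% interval -1.19 to -0.28), or 1.67-fold lower, in place 91 from the lowest. It was -0.38 within run 1 and -1.03 within run 2. At 10 µM the mean was 9.35 ± 0.24 (n = 6) and the difference from DMSO -0.49 (SE 0.19, 95% interval -0.90 to -0.08), or 1.40-fold lower. That difference was not called over all genes (limma, unadjusted p = 0.0237, adjusted p = 0.554), with an exact permutation p of 0.025 within runs. It was -0.29 within run 1 and -0.62 within run 2, a change between runs of -0.33 (SE 0.38, limma adjusted p = 0.787). The doses differed by -0.25 (SE 0.20), with -0.48 without 100 µM array 16 and -0.08 without 100 µM array 27.

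Rbp4, the retinol carrier of plasma, was one of the bright members and showed little separation. Its log2 level in DMSO was 9.59, 9.42, 9.53, 9.58 and 9.72. At 10 µM it ranged 8.94 to 9.88 with a median of 9.56, and at 100 µM it was 9.54, 9.45, 9.36 and 8.98. The lowest 100 µM array and the lowest 10 µM array both came from run 2, and the groups overlapped. The mean was 9.57 ± 0.11 in DMSO, 9.51 ± 0.34 at 10 µM and 9.33 ± 0.24 at 100 µM (SD, n = 5, 6 and 4).

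The difference of Rbp4 from DMSO was -0.25 at 100 µM (SE 0.16, 95% interval -0.60 to 0.10), and -0.14 without 100 µM array 27. It was -0.01 within run 1 and -0.44 within run 2. At 10 µM it was -0.07 (SE 0.15, 95% interval -0.39 to 0.24, limma adjusted p = 0.965), with 0.09 within run 1 and -0.19 within run 2. At both doses the interval covers 0 and also changes larger than the residual SD of this gene.

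Lrat, which esterifies retinol for storage, was dim: its log2 level lay below the range of the array medians of all probe sets, 5.38 to 5.51, in all arrays but 10 µM array 23. In DMSO it was 4.68, 4.52, 4.48, 4.34 and 4.76. At 10 µM it ranged 4.34 to 5.44 with a median of 4.47, and at 100 µM it was 4.57, 4.41, 4.41 and 4.58. The 3 groups overlapped, apart from 10 µM array 23 at 5.44.

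The difference of Lrat from DMSO was -0.05 at 100 µM (SE 0.18, 95% interval -0.44 to 0.34) and 0.06 at 10 µM (SE 0.16, 95% interval -0.29 to 0.41, limma adjusted p = 0.976). Within runs it was -0.11 and -0.03 at 100 µM and -0.21 and 0.29 at 10 µM (run 1 and run 2). Without DMSO array 10 the 100 µM difference was 0.02, and without DMSO array 21 -0.12. Without array 23 the 10 µM difference was -0.12 (limma adjusted p = 0.774), on the other side of 0. In array 23 the mean of 12 Kupffer cell markers was 7.36, that of 7 endothelial markers 5.49 (4.57 to 5.14 in the other arrays) and that of 20 stellate markers 5.38 (5.13 to 5.34 in the others). The summed linear level of the stellate list ranged 942.4 to 1045 in DMSO, 913.5 to 1091 at 10 µM and 930.2 to 1118 at 100 µM. Of its 20 genes, 18 lay higher and 2 lower at 100 µM (median 0.06), and 10 lay higher and 10 lower at 10 µM (median 0.01), with 0 called at either dose. Their part in the Lrat value was not tested, and in bulk RNA fewer cells of a type and less RNA per cell cannot be told apart.

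**Figure D2:**
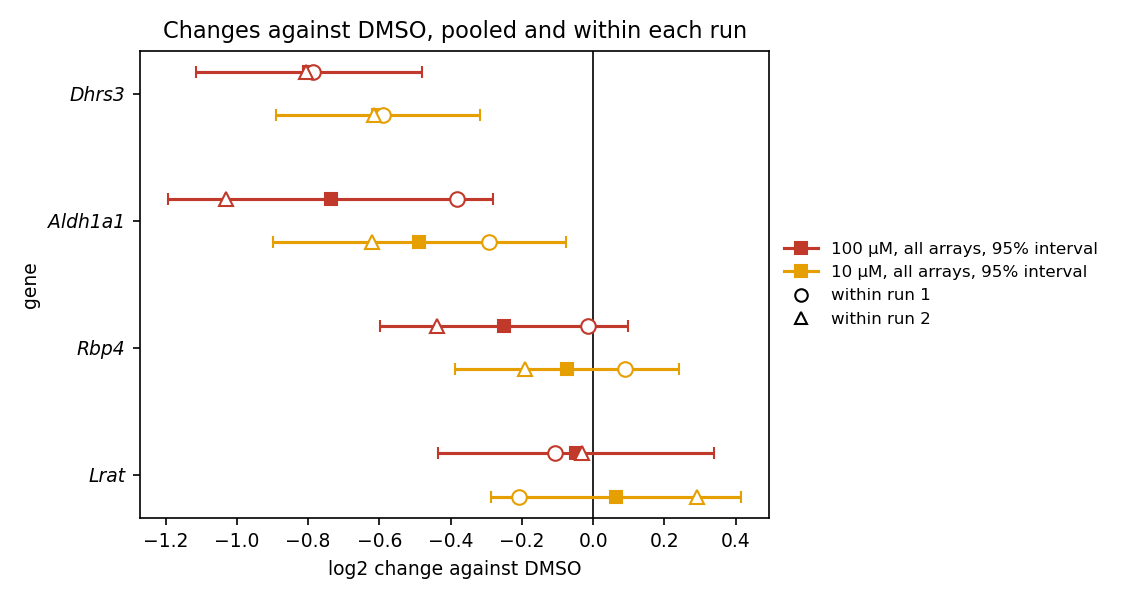
Log2 change from DMSO (horizontal axis, with 95% intervals from limma) of the 4 measured members at 100 µM and 10 µM, with the values within run 1 and run 2 as separate marks. Dhrs3 sits at -0.80 and -0.60 with its runs close together, while the runs of Aldh1a1 at 100 µM are -0.38 and -1.03.

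Between run 2 and run 1 79 genes (0.545%) were called by limma over all genes, and 11% passed without adjustment. No measured member was among them. Run 2 minus run 1 was 0.12 for Dhrs3 (SE 0.11, limma adjusted p = 0.767), 0.08 for Aldh1a1 (SE 0.16, adjusted p = 0.907), -0.13 for Rbp4 (SE 0.13, adjusted p = 0.783) and 0.15 for Lrat (SE 0.14, adjusted p = 0.769). The residual SD of the fit with dose and run as terms, which also holds any difference of the dose effect between runs, was 0.23 for Dhrs3, 0.35 for Aldh1a1, 0.26 for Rbp4 and 0.29 for Lrat, against a median of 0.19 over all genes.

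The rest of the pathway was read from lists of 63 further entries, of which 51 genes were measured. None was called at either dose. At 100 µM 18 lay higher and 33 lower, with a median of -0.08, against 0.02 over all genes. Without adjustment 0 higher and 4 lower passed: Aox1, Cyp2c22, Hsd17b13 and Rdh13. At 10 µM 22 lay higher and 29 lower, with a median of -0.04 against -0.00 over all genes, and 3 higher (Ttr, Ces1d and Ces1e) and 3 lower (Aox1, Rbp2 and Dhrs4) passed without adjustment. These 4 and 6 of 51 genes stand beside 6.85% and 7.65% of all genes. Of the 24 genes named by rule, 21 at 100 µM and 22 at 10 µM moved by over 1.5 times or changed sign on leaving out 1 array. The others were Aox1, Ces1e and Cyp2c22 at 100 µM and Aox1 and Ttr at 10 µM.

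Enzymes that interconvert retinol and retinal lay mostly lower, 9 of 11 at each dose besides Dhrs3, with medians of -0.14 at 100 µM and -0.11 at 10 µM. Of all genes 44.3% and 50.9% lay lower at these doses. The reductase Dhrs4 was at -0.53 (SE 0.32) at 100 µM and -0.71 (SE 0.29) at 10 µM, where its limma adjusted p was 0.564. It lay lower in run 2 only, with means of 7.83 in DMSO, 6.54 at 10 µM and 6.76 at 100 µM. In run 1 these means were 6.91, 6.96 and 7.09. Adh1c, an alcohol dehydrogenase, was at -0.53 (SE 0.30) and -0.23 (SE 0.27), with -0.33 at 100 µM without 100 µM array 27, and -0.45 without 10 µM array 23 or -0.10 without DMSO array 20 at 10 µM. Rdh10, the main retinol dehydrogenase of the embryo in mice, was at -0.15 and -0.26, Rdh11 at 0.08 and -0.11, and Rdh16 at -0.14 and -0.05, none of them called.

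For retinoic acid synthesis 4 genes besides Aldh1a1 were measured, 2 higher and 2 lower at each dose. Aox1, an aldehyde oxidase that can oxidise retinal, averaged 8.77 ± 0.63 in DMSO, 8.03 ± 0.25 at 10 µM and 7.87 ± 0.26 at 100 µM (log2, SD). Its differences from DMSO were -0.86 at 100 µM (SE 0.23, limma adjusted p = 0.582) and -0.70 at 10 µM (SE 0.21, limma adjusted p = 0.408). They came mostly from run 2, where the means were 9.21 in DMSO, 7.97 at 10 µM and 7.94 at 100 µM. In run 1 the means were 8.11, 8.08 and 7.79. The 100 µM difference had the lowest unadjusted limma p (0.00241) at that dose among the list genes besides the members. Aldh1a2, at -0.08 at both doses, and Aldh1a3, at 0.19 and 0.04, lay near 0. Both were dim, with group means of 4.36 to 4.44 and 4.83 to 5.02, below the array medians of 5.38 to 5.51. Of the genes that break retinoic acid down, Cyp26a1, the hydroxylase most readily induced by retinoic acid in liver, was at 0.15 (SE 0.11) and 0.02 (SE 0.10), and its relative Cyp26b1 at -0.01 and -0.04. These 2 genes were dim as well, with group means of 4.79 to 4.94 and 4.09 to 4.14. Cyp2c22, a rat cytochrome that hydroxylates retinoic acid, was at -1.26 (SE 0.48, limma adjusted p = 0.686) and -0.73 (SE 0.44), on group means of 11.45 ± 0.45 in DMSO, 10.72 ± 0.98 at 10 µM and 10.19 ± 0.73 at 100 µM.

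Among the carriers 5 of 8 besides Rbp4 lay higher at each dose. Ttr, transthyretin, which holds Rbp4 in plasma, was at 0.41 at 10 µM (SE 0.12, limma adjusted p = 0.394) and 0.25 at 100 µM (SE 0.13). Its 10 µM and DMSO means were 12.33 and 12.22 in run 1, and 12.57 and 11.94 in run 2. Rbp2, the intestinal retinol-binding protein, was at -0.44 (SE 0.15, limma adjusted p = 0.495) at 10 µM. Stra6l, a liver receptor for Rbp4 in mice, was at -0.30 at 100 µM, with -0.11 without 100 µM array 15, and -0.20 at 10 µM. Crabp1, a retinoic acid carrier inside cells, was at 0.10 and 0.04. These genes did not move one way. Rbp2 and Crabp1 were dim, with group means of 4.28 to 4.72 and 4.59 to 4.67.

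Genes of retinyl ester storage and release besides Lrat lay lower in 8 of 9 at 100 µM (median -0.24) and in 4 of 9 at 10 µM (median 0.01). Hsd17b13, a lipid droplet protein with retinol dehydrogenase activity in humans, was at -0.72 at 100 µM (SE 0.31), with -0.46 without 100 µM array 27, and at -0.34 at 10 µM (SE 0.28), with -0.59 without 10 µM array 23 and -0.15 without 10 µM array 24. Its 100 µM and DMSO means were 8.99 and 9.14 in run 1, and 8.66 and 9.86 in run 2. The carboxylesterase Ces1d was at 0.37 (SE 0.12, limma adjusted p = 0.447) at 10 µM and -0.06 (SE 0.13) at 100 µM, and Dgat1, another enzyme able to esterify retinol, at -0.25 and -0.10 at 100 µM and 10 µM. The largest value of this list, 0.79 (SE 0.51, limma adjusted p = 0.775), was that of Lpl, lipoprotein lipase, at 10 µM, where its arrays ranged 4.81 to 8.75, against 4.82 to 6.05 in DMSO. Between the doses, all 9 storage genes lay lower at 100 µM than at 10 µM, of which Ces1d passed without adjustment (-0.43, SE 0.13, limma adjusted p = 0.930), against 4.98% of all genes. Of all genes 43.5% lay lower at 100 µM than at 10 µM. The values of the storage genes ran from -0.02 for Ces1e (SE 0.11) to -1.07 for Lpl (SE 0.54). This count was not repeated without single arrays such as 10 µM array 23.

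Of 6 receptors and corepressors, 3 lay higher and 3 lower at each dose. Rxra, the shared partner of nuclear receptors in liver, was at -0.31 (SE 0.15) at 100 µM and 0.06 (SE 0.14) at 10 µM. Rara was at -0.13 and -0.03, and Rxrb at 0.19 and -0.08. Of 11 retinoic acid response genes besides the members, 6 lay lower at 100 µM (median -0.01) and 7 at 10 µM (median -0.04). Stra6, a retinol transporter and a response gene, was at 0.15 and 0.09, and Hoxa5 at 0.15 and -0.04, all without a call. Both genes were dim, with group means of 5.14 to 5.30 and 3.52 to 3.71. Bco2, a carotenoid-cleaving enzyme, was at -0.09 and 0.04. Cleavage and uptake of carotenoids held the 1 list gene that was called between runs: Scarb1, the scavenger receptor, was lower in run 2 by limma, at -0.52 (SE 0.10, adjusted p = 0.0360). That call was lost on leaving out any of 10 single arrays, where the adjusted p was 0.0539 to 0.0779, and also with a renewed quantile normalization (adjusted p = 0.0884).

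**Figure D3:**
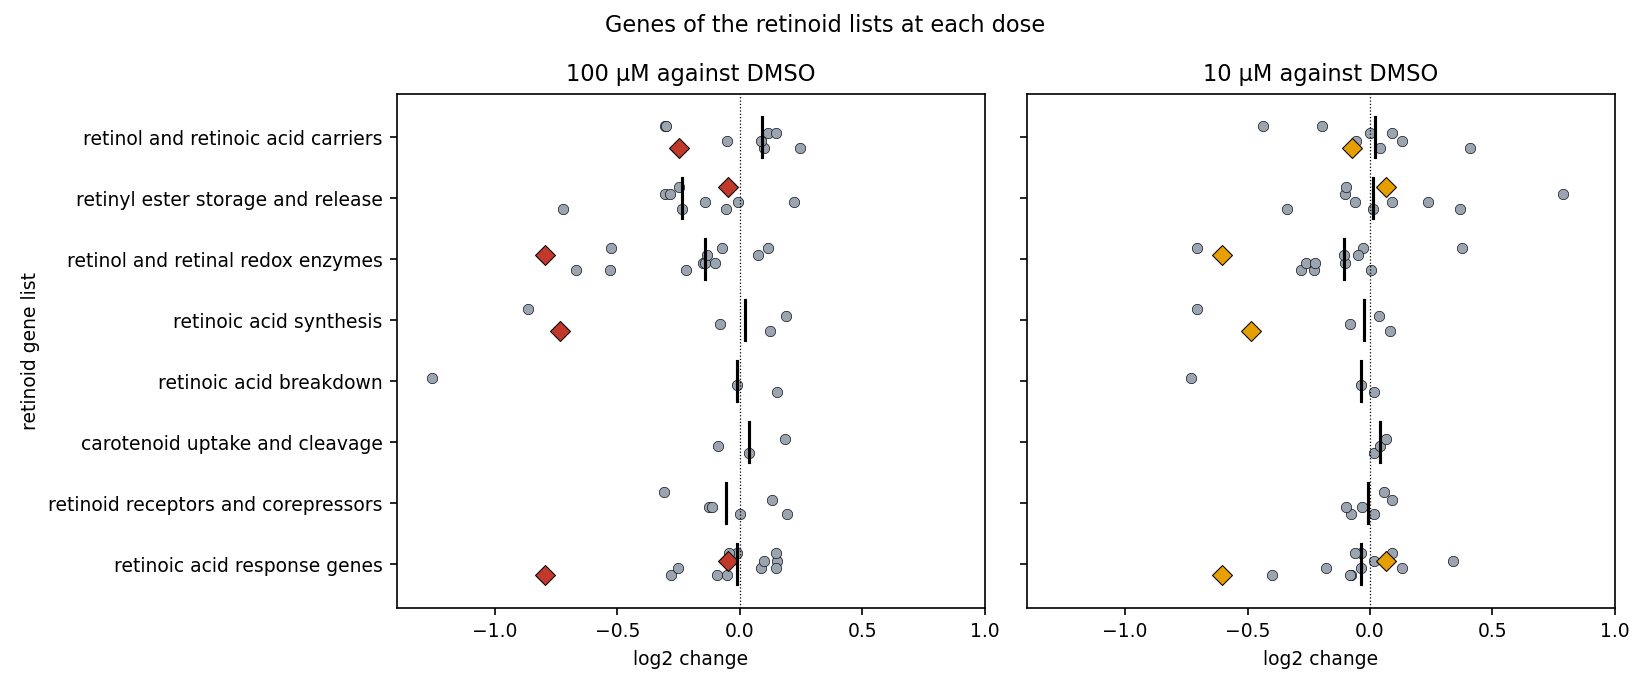
Log2 change of each measured retinoid gene at 100 µM and at 10 µM against DMSO, grouped by role, 1 point per gene, with members as diamonds and a bar at the median of the other genes of each list. Redox enzymes lie mostly left of 0, with Dhrs3 at -0.80, and receptors lie on both sides.

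Across the 15 arrays Dhrs3 and Aldh1a1 were high and low in much the same arrays, with a Pearson r of 0.80 and a Spearman rho of 0.76. The r was 0.71 over the 7 arrays of run 1, 0.86 over the 8 of run 2, 0.73 without the 2 arrays farthest from the Dhrs3 median and 0.58 after removing the mean of each dose within each run. It carries no p, since Dhrs3 was selected on these arrays and all values share the same hybridisations. Dhrs3 and Rbp4 had an r of 0.40, and Dhrs3 and Lrat 0.10.

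The 3 pairs without Dhrs3 were tested by permutation, two-sided, and none passed after adjustment over the 3. Aldh1a1 and Rbp4 had an r of 0.39 (permutation p = 0.146, adjusted p = 0.235) and a rho of 0.34 (permutation p = 0.209, adjusted p = 0.594), with r at -0.35 in run 1, 0.66 in run 2 and 0.19 without the 2 farthest arrays. Rbp4 and Lrat had an r of 0.40 (permutation p = 0.157, adjusted p = 0.235) and a rho of 0.24 (permutation p = 0.396, adjusted p = 0.594), with r at 0.01 in run 1, 0.56 in run 2 and 0.65 without the 2 farthest, and 0.03 without array 23. Aldh1a1 and Lrat had an r of -0.09 (permutation p = 0.768, adjusted p = 0.768) and a rho of -0.07 (permutation p = 0.813, adjusted p = 0.813), with -0.06 without the 2 farthest arrays.

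**Figure D4:**
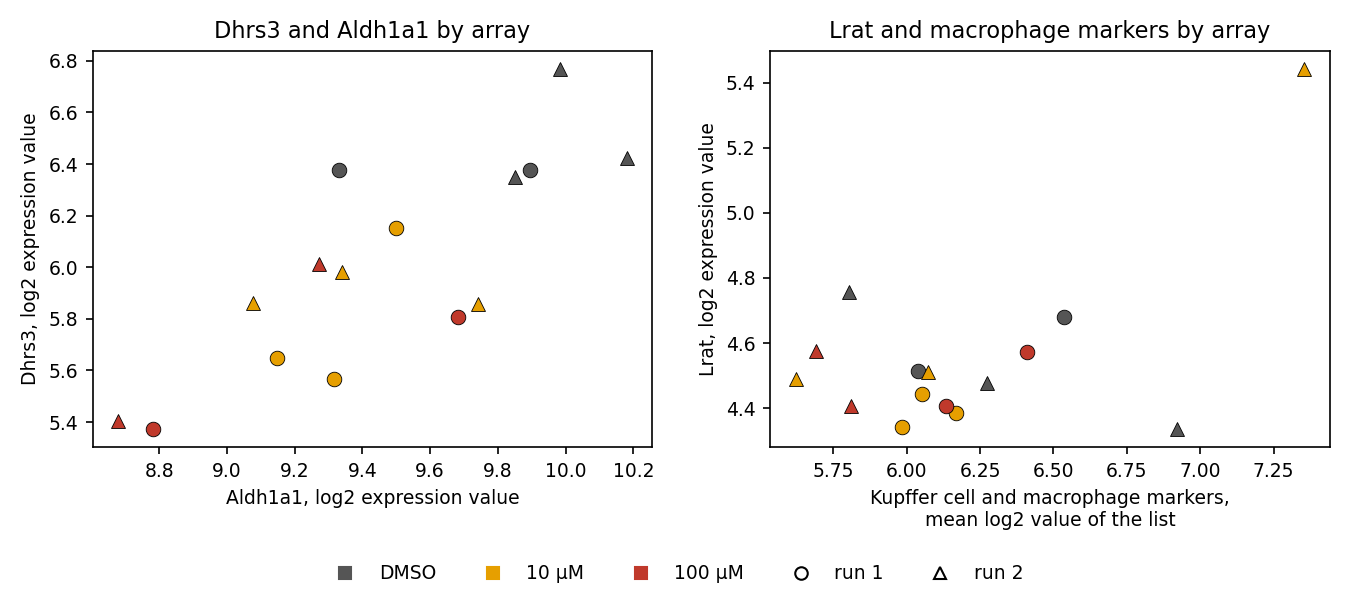
Left, log2 level of Dhrs3 (vertical axis) against that of Aldh1a1 (horizontal axis); right, log2 level of Lrat against the mean log2 level of the Kupffer cell and macrophage markers, 1 point per array, with dose as colour and number run as symbol. The left points spread from low flutamide arrays to high DMSO arrays (r of 0.80), and on the right 10 µM array 23 stands alone at 5.44 and 7.36.

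The genes whose levels over the 15 arrays were most like Dhrs3 by Pearson r were A1cf (0.88), Slc10a2 (0.87), Kynu (0.87), Pecr (0.87) and Mgst1 (0.86), against a median of -0.04 over all genes. The most opposed were Wbp11 (-0.87), Btg3 (-0.86), Rtf1 (-0.86), Tmod3 (-0.85) and Ccng1 (-0.85). All the like genes lay lower than DMSO at both doses (A1cf at -1.18 at 100 µM and -0.72 at 10 µM). All the opposed genes lay higher (Wbp11 at 0.40 and 0.27). These r values thus hold the dose difference on which Dhrs3 was selected, and they carry no p. No r within doses was computed for these genes. Kynu, the kynureninase of tryptophan breakdown, was also among the 3 most like Aldh1a1 (0.87), after Cmbl (0.88) and Selenop (0.87). Rbp4 was closest to Cps1 (0.89), Tmsb10 (0.83) and Rab8b (0.81). For Lrat the closest were Calcrl (0.95), Samsn1 (0.94) and Relt (0.93), and without array 23 these r values were 0.71, 0.64 and 0.51.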

How the data were processed

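Each of the 15 biochips was measured on 1 Affymetrix rat whole-transcript array, from biotin-labelled cDNA. The authors deposited log2 values for 29214 probe sets. Per the submitters' processing notes they were made with RMA and Partek, with no version or setting stated in the sources used here. RMA in its usual form equalises array distributions, which hides a shift common to most genes. No further normalization was done here. The number of arrays limits the precision, since arrays carry no read depth.

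Of 15633 annotated probe sets, 15310 carried 1 symbol, of which 15279 matched RefSeq (assembly GRCr8) by gene identifier, and 323 carried several and were left out. For 527 genes the probe set of highest mean was used, which left 14506 genes. No table column belonged to another sample (0).

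limma 3.58.1 (R 4.3.3, lmFit and eBayes) was fitted to all 15 arrays with dose group and number run as terms (11 residual degrees of freedom). A call needed an adjusted p under 0.05, with the Benjamini-Hochberg method run on the whole gene table, and intervals are at 95%. The fit was tested on simulated data. For 100 µM against DMSO no p is given for members, since Dhrs3 was selected on that contrast and the list was drawn up with it known. Correlations used 1e+05 permutations.

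The members, the gene lists and the rule for named genes (a fixed set of pathway genes plus the 2 lowest p of each list at 100 µM, and calls) were chosen with earlier results of these data known, and Lpl and the list genes passing without adjustment were named after their values were seen. Alternatives were no run term, array quality weights and a renewed quantile normalization. A minimum mean log2 of 5 and the mean of all probe sets of a gene were also used. Further ones were each run alone, leaving out each array and, chosen after seeing the data, leaving out the 3 arrays of lowest weight.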

Additional observations from a re-analysis of the deposited data

Results flagged for a closer look

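In a search of 12 groups of 4 to 6 arrays for a single far value, where chance flags about 1 in 20 groups, 2 values stood out. Dhrs3 was at 6.77 in DMSO array 22, against 6.35 to 6.42 in the other DMSO arrays. Lrat was at 5.44 in 10 µM array 23, against 4.34 to 4.51 in the other 10 µM arrays.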

How the results depend on the processing

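No paired analysis was possible because the title numbers are shared by no 2 groups. Under the alternatives other than leaving out 1 array, 479 values were classed as unchanged, 6 moved, 38 changed sign and 2 lost a call. The 479 include differences that an alternative could not alter. A minimum mean log2 of 5 changes no difference of a kept gene. The mean of all probe sets changes none of a gene with 1 probe set. Apart from the cases in the next sentence, a difference with no call mostly needed only to keep its sign. Counts of genes, and members at 100 µM against DMSO or against 10 µM, were classed by the size of the shift alone. Such values can change sign and still be classed as unchanged. On leaving out single arrays, Lrat at 100 µM was -0.12 to 0.02 and was not classed as a change of sign. Dhrs3 stayed lower at both doses under every alternative run, at -0.91 to -0.68 (100 µM) and -0.68 to -0.54 (10 µM) on leaving out single arrays. Since every flutamide array of Dhrs3 lay under every DMSO array, that sign was all but fixed beforehand. At 100 µM the gene was also selected on these values. Within run 2 alone 1 gene was called at 100 µM and 7 at 10 µM. At 10 µM 1 gene was called with array weights, with a renewed quantile normalization, and without DMSO array 11 or 22 (0 to 1 on leaving out single arrays). Between runs the count was 191 with array weights and 37 to 129 on leaving out single arrays, lowest without DMSO array 11 and highest without 10 µM array 23. Aldh1a1 at 100 µM was -0.38 within run 1. A minimum mean log2 of 5 left Lrat out. Arrays with no detection value limit what dim genes can show. These include Lrat, Aldh1a2, Aldh1a3, Cyp26a1, Cyp26b1, Crabp1, Rbp2, Stra6 and Hoxa5.

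Among members, Rbp4 at 10 µM was 0.090 within run 1 and -0.18 to 0.044 on leaving out single arrays. Lrat at 10 µM was -0.086 with array weights, -0.21 within run 1, -0.13 without the 3 low-weight arrays and -0.12 to 0.13 on leaving out single arrays. Aldh1a1 between runs was -0.0095 with array weights, -0.071 without the 3 arrays and -0.024 to 0.21 on leaving out single arrays. The cause of these changes was not tested.

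Other genes named by rule that changed sign at 10 µM had no call in either setting. With array weights Aldh1a3 was -0.054, Crabp1 -0.041, Cyp26a1 -0.029, Rara 0.0043, Rdh11 0.059 and Rdh13 -0.0071. With the renewed normalization Rara was 0.025. Within run 1 Aldh1a3 was -0.011, Crabp1 -0.16, Cyp26a1 -0.18, Cyp26b1 0.011, Dgat1 0.12, Rara 0.38, Rdh11 0.17 and Stra6 -0.062. Within run 2 Rdh13 was -0.012, Rdh16 0.027, Rxra -0.020, Rxrb 0.022 and Scarb1 -0.034. Without the 3 arrays Aldh1a3 was -0.076, Crabp1 -0.12, Cyp26a1 -0.061, Dgat1 0.039, Rara 0.098, Rdh11 0.14 and Stra6 -0.028. Leaving out single arrays gave Aldh1a3 -0.040 to 0.10, Bco2 -0.085 to 0.16, Crabp1 -0.054 to 0.089, Cyp26a1 -0.059 to 0.065, Cyp26b1 -0.084 to 0.024, Rara -0.12 to 0.098, Rdh11 -0.20 to 0.025, Rdh13 -0.038 to 0.062, Rdh16 -0.22 to 0.044, Rxra -0.0024 to 0.11. At 100 µM, within run 1 Cyp26b1 was 0.16, Rara 0.14, Rdh16 0.040 and Ttr -0.042, within run 2 Scarb1 was -0.16, and leaving out single arrays gave Bco2 -0.24 to 0.050, Cyp26b1 -0.11 to 0.046, Rdh11 -0.013 to 0.21. Scarb1 between runs was -0.46 with the renewed normalization and -0.41 without the 3 arrays (limma adjusted p = 0.0789).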

Other observations

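Dhrs3 was 1 of 8 genes whose 10 flutamide arrays all lay below the 5 DMSO arrays. The other 7 were Slco1b2, a hepatocyte uptake transporter, Sord, the sorbitol dehydrogenase, Rbbp8, Pop1, Lmf2, Nfix and Cfdp1. The 8 genes wholly above DMSO were Cdc27, Slc26a3, Vps4b, Ythdc1, Casc3, Fbxo3, Ing4 and Creb5. None of these 15 other genes is in the retinoid lists. Those lists hold only 51 of the 14506 genes besides the members, so 0 of 15 carries no weight.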
